A study of Mus musculus with 10 samples.

Results

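H3K4me3 ChIP-seq peaks of F123 mouse embryonic stem cells were described here by the kind of annotated sequence that holds their summit. The deposited list held 33487 peaks, and the 32496 on the 19 autosomes were all used. The summit of each peak, the position of its highest signal, was placed once, in a fixed order, by the GENCODE M21 annotation of mm10. A summit at most 1 Kb from where a protein-coding transcript starts was called coding start. A remaining summit within 1 Kb of the start of any other transcript was called other start, and those left were placed in an exon, in an intron or between genes. The other starts thus include noncoding transcripts of protein-coding genes, such as retained introns.

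F123 is an F1 line whose parents were a castaneus and a S129/SvJae mouse, and the list does not separate its alleles. Cells were untreated. Culture was in knockout serum replacement and LIF over a feeder layer of irradiated CF1 fibroblasts, and the last passage was on gelatin with no feeder layer. The study also made ATAC-seq from the same line, with 2 replicates, and its list of open chromatin, 172958 peaks on the autosomes, served here as a second readout. For H3K4me3, 2 biological replicates were immunoprecipitated with an antibody to this mark, each with an input sample. A single peak list stands for both, so no value below has a spread between replicates and no test between classes was made. Intervals are 95% confidence intervals (Wilson for shares, binomial order statistics for medians) and cover counting error only, and the 19 autosomes show how a value varied along the genome. Read counts are not part of the list, and library depth is therefore unknown.

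H3K4me3 is trimethylation of lysine 4 on histone H3. SET1 and MLL complexes write it, largely over the nucleosomes that follow the start of a transcribed gene, and CXXC-domain proteins that bind unmethylated CpG bring these complexes to CpG islands. In embryonic stem cells it also lies, together with H3K27me3, on the starts of many silent developmental regulators, and weaker H3K4me3 is found at some enhancers.

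Sequence at the summit is given for a single peak of each class, chosen for its strength, and does not stand for the class. Those of Sp3, Stk35 and Zfhx3, from the other start, exon and intron classes, also covered a coding start. The strongest peak of each class, by the fold enrichment read from the authors' list, is printed below. Each has the base of mm10 at its summit and 100 more on either side. The peak at Pou5f1, which encodes the pluripotency factor OCT4, is added as a known gene of these cells. Capitals mark each CG dinucleotide. These are bases of the reference genome, not of the F123 alleles.
Strap, coding start, chr6:137735240-137735440, plus strand: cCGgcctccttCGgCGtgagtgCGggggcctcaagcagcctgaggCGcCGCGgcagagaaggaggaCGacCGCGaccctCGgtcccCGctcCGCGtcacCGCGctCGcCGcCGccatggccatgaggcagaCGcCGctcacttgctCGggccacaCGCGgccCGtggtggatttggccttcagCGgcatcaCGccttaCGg
Sp3, other start, chr2:72978746-72978946, plus strand: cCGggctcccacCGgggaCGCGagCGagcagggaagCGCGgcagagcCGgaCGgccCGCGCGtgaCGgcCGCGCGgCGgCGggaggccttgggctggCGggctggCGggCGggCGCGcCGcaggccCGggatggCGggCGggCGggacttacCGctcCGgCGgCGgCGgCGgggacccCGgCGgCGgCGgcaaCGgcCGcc
Stk35, exon, chr2:129801556-129801756, plus strand: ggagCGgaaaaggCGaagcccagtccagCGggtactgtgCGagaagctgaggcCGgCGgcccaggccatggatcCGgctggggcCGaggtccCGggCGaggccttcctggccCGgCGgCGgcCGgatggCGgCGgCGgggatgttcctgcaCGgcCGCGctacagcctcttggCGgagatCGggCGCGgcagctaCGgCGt
Zfhx3, intron, chr8:108704414-108704614, plus strand: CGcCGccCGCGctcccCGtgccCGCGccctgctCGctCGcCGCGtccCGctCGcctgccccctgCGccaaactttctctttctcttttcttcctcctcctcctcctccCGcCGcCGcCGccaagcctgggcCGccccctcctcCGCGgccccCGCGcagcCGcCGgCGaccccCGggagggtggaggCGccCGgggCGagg
Upstream of Olfr1421-ps1, intergenic, chr19:12011282-12011482, plus strand: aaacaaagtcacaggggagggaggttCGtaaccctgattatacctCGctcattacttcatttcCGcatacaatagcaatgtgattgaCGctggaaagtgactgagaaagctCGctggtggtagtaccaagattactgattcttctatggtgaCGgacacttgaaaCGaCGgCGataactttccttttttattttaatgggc
Pou5f1, coding start, chr17:35506127-35506327, plus strand: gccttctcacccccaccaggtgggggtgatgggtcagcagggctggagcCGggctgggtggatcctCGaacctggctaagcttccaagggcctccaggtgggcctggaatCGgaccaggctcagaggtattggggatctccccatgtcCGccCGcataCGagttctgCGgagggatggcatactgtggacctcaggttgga
The windows at Strap, Sp3, Stk35 and Zfhx3 held 28, 40, 26 and 30 CG dinucleotides and were 72.6 to 85.6% G and C. Only 9 CG dinucleotides lay in the window upstream of Olfr1421-ps1 and 7 in that of Pou5f1. Over 1 Kb, the former had a CpG ratio of 0.926 (observed over expected, described further on) in sequence of 44.6% G and C, and the latter 0.361 at 61.6%. Strong H3K4me3 in this list was therefore not limited to summits with many CG dinucleotides. The peaks around these windows were 2469, 4988, 4009, 3214, 2594 and 5078 bp wide, in the order printed, with fold enrichments of 88.7, 61.8, 55.4, 58.5, 61.0 and 35.1.

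Coding starts held more peaks than any other class. They took 14771 peaks (45.5%, 44.9 to 46.0), although bases within 1 Kb of a coding start made up 2.57% of the known autosomal sequence. Intergenic sequence held 6895 peaks (21.2%, 20.8 to 21.7), introns 5602 (17.2%, 16.8 to 17.7), other starts 2827 (8.70%, 8.40 to 9.01) and exons 2401 (7.39%, 7.11 to 7.68). Per Mb of its own sequence, a class held 239.8 peaks at coding starts, 31.8 at other starts, 29.7 in exons, 5.81 in introns and 5.75 between genes. Relative to their share of the genome, peaks were 17.7 times as frequent at coding starts, 2.35 times at other starts and 2.19 times in exons. Introns and intergenic sequence had 0.428 and 0.424 of the peaks that their share of the genome would hold. Because coding-start peaks were also wide, they made up 66.8% of the 47.2 Mb under peaks.

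**Figure D1:**
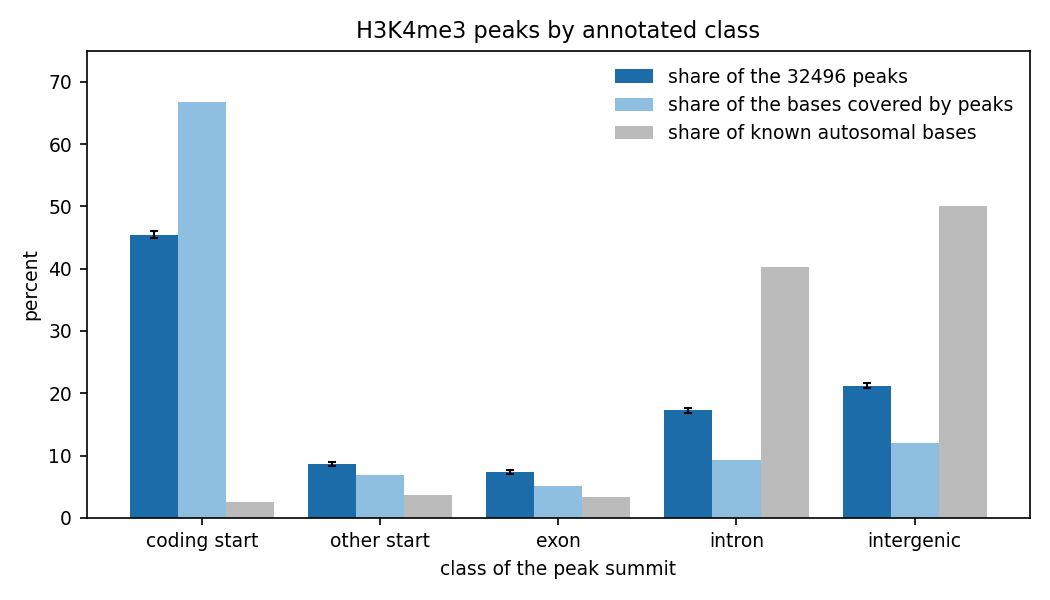
Bars give, for each class, the percent of peaks (dark, with 95% Wilson intervals), the percent of all bases under peaks (light) and the percent of known autosomal bases (grey). Coding starts hold 45.5% of the peaks and 66.8% of the bases under peaks in 2.57% of the genome.

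The count of other starts depended on the transcripts used. With every transcript of a protein-coding gene counted as coding, other starts held 1765 peaks, and with the basic transcripts alone 1828. Intron and intergenic counts depended on the q minimum, since a minimum of 10 on −log10 q left 2932 intron and 4034 intergenic peaks. Another peak lay at most 1 Kb away for 32.7% of intron and 24.8% of intergenic peaks. Merging across such gaps left 4235 intron and 5801 intergenic peaks.

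The coding-start share ran from 39.9% on chromosome 13 to 50.6% on chromosome 7, and the intergenic share ran the other way at these ends, from 30.1% on chromosome 13 to 15.1% on chromosome 7. On all 19 autosomes the median width and the median fold enrichment of coding-start peaks were above those of each other class. Introns and intergenic sequence lay closest, with the intron median of fold enrichment above the intergenic one on 1 of 19 autosomes.

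At coding starts the summit lay just downstream of the start. Of the 14771 summits, 11845 (80.2%, 79.5 to 80.8) were downstream of the nearest coding start, 2917 (19.7%) upstream and 9 at the start itself. The median position was 152 bp downstream (149 to 154), with quartiles at 51 and 229 bp. The 50 bp step with the most summits ran from 150 to 200 bp downstream and held 2633 of them. The peak itself usually spanned the start, which 13591 of these peaks (92.0%) covered. A single coding gene had its start within 1 Kb of the summit at 13500 peaks, 2 genes did at 1243 (8.42%) and 3 or more at 28. Peaks with 2 or more genes were wider (median 2501 bp, 2443 to 2558) and stronger (34.5, 33.9 to 35.1) than those with 1 gene (1938 bp, 1918 to 1955, and 27.4, 27.1 to 27.8).

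**Figure D2:**
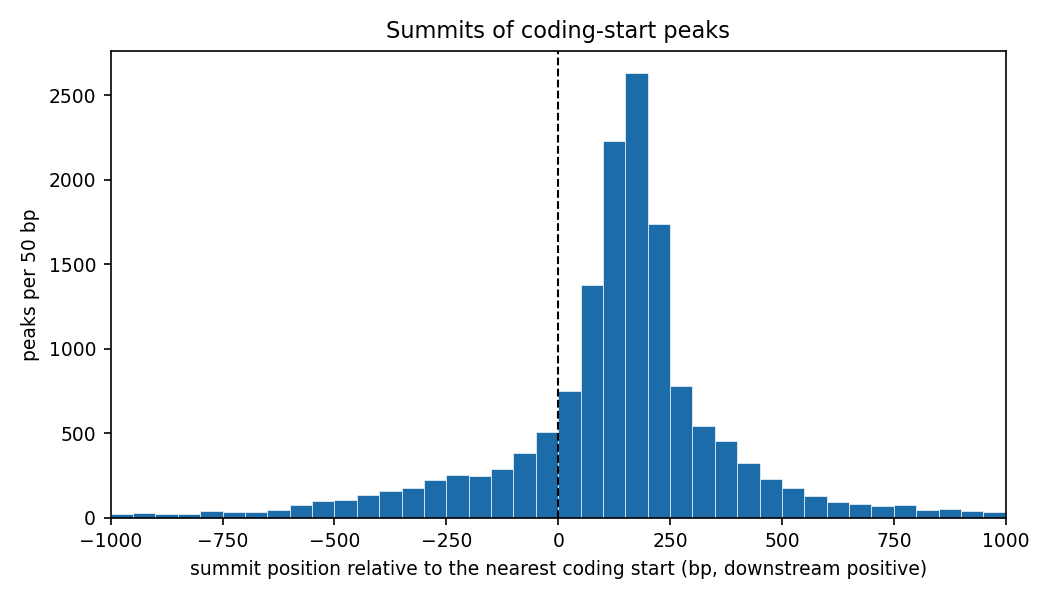
Bars count coding-start peaks per 50 bp by the position of the summit relative to the nearest coding start, with downstream positive and the start as a dashed line. Counts are highest at 150 to 200 bp downstream, with 2633 summits.

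Within the window that defines the class, strength was highest a short way from the start. Summits under 100 bp from a coding start had a median fold enrichment of 25.4 over 3012 peaks, those 100 to 200 bp away 30.6 over 5403 peaks and those 200 to 300 bp away 32.4 over 3000 peaks. Summits 500 to 600 bp away had 19.3 over 481 peaks. The 129 peaks just inside the limit, 900 to 1000 bp away, had a median of 7.92 and a width of 1159 bp. The 122 peaks just outside it, 1000 to 1100 bp away, had 6.40 and 832.5 bp.

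Coding-start peaks were the widest and the strongest. Their median width was 1988 bp (1969 to 2007), against 825 bp (795 to 862) at other starts, 748 bp (728 to 775) in exons, 623 bp (611 to 636) between genes and 583 bp (572 to 595) in introns. Fold enrichment was read from the signal column of the list and is taken here as the ratio of ChIP signal to background. The sources used here do not state its definition. Its median was 28.3 (28.0 to 28.6) at coding starts. It was 5.78 (5.55 to 6.07) at other starts, 4.92 (4.78 to 5.09) in exons, 4.30 (4.21 to 4.37) between genes and 3.94 (3.88 to 4.00) in introns. None of these intervals overlapped. The classes themselves did overlap, since the weakest 5% of coding-start peaks lay at or below 4.06 and the strongest 5% of intergenic peaks at or above 17.3. Peaks of 2 Kb or more made up 49.5% of coding-start peaks and 13.5, 8.12, 4.37 and 5.19% of those at other starts, in exons, in introns and between genes. Peaks under 500 bp made up 4.61% at coding starts, 39.5% in introns and 36.2% between genes.

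**Figure D3:**
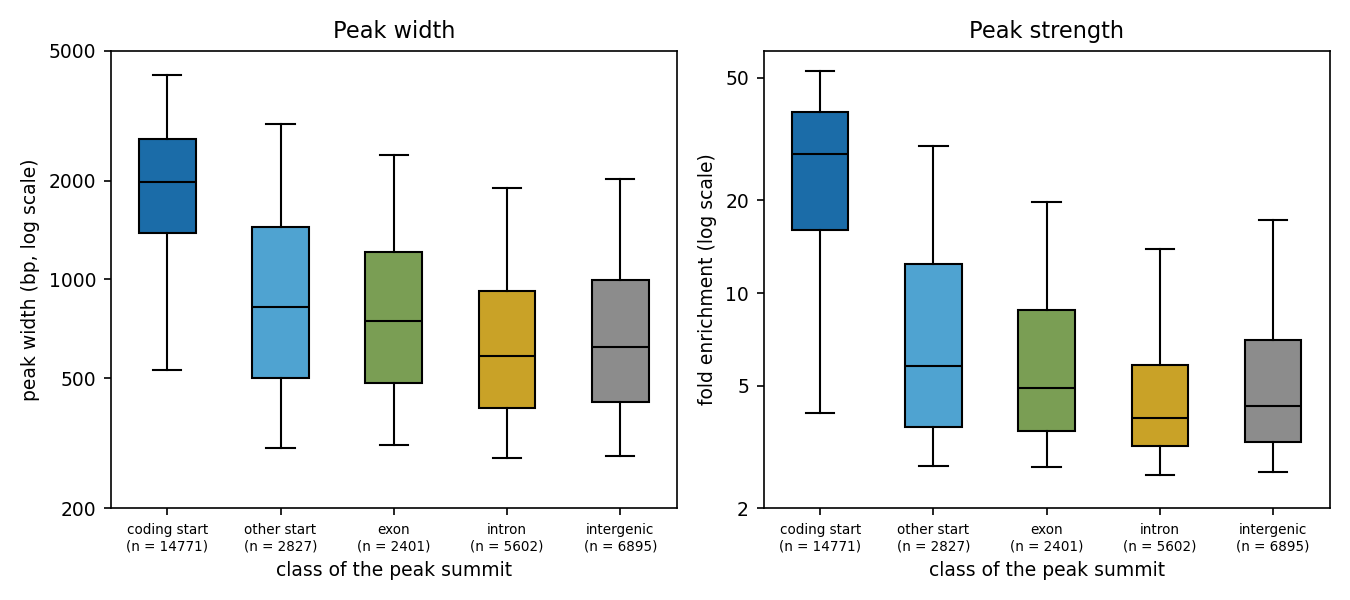
Boxes give the median and quartiles of peak width (left, bp) and fold enrichment (right) for each class, on log axes, with whiskers at the 5th and 95th percentiles. The coding-start medians of 1988 bp and 28.3 lie above the upper quartiles of every other class.

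Much of the difference in width went with strength. Among peaks with a fold enrichment under 3, the median width was 431.5 bp at coding starts, 428 bp at other starts, 441.5 bp in exons, 441 bp in introns and 445 bp between genes. Between 5 and 10 it was 989, 885, 891, 873 and 828.5 bp in the same order. The classes thus lay close in width within these weak bins, while from 20 to 40 they ran from 1706 bp between genes to 2153 bp at coding starts. The make-up of the bins changed with strength. Coding starts held 8.77% of the 2804 peaks under 3, 52.2% of the 4566 peaks from 10 to 20 and 97.3% of the 3377 peaks at 40 or more. At similar width, strength still differed between the classes, but little among narrow peaks. Under 500 bp the median fold enrichment ran from 3.37 in introns to 3.65 at coding starts. Peaks of 1 to 2 Kb had a median fold enrichment of 24.9 at coding starts, 11.6 at other starts, 9.48 in exons, 7.25 in introns and 8.37 between genes.

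**Figure D4:**
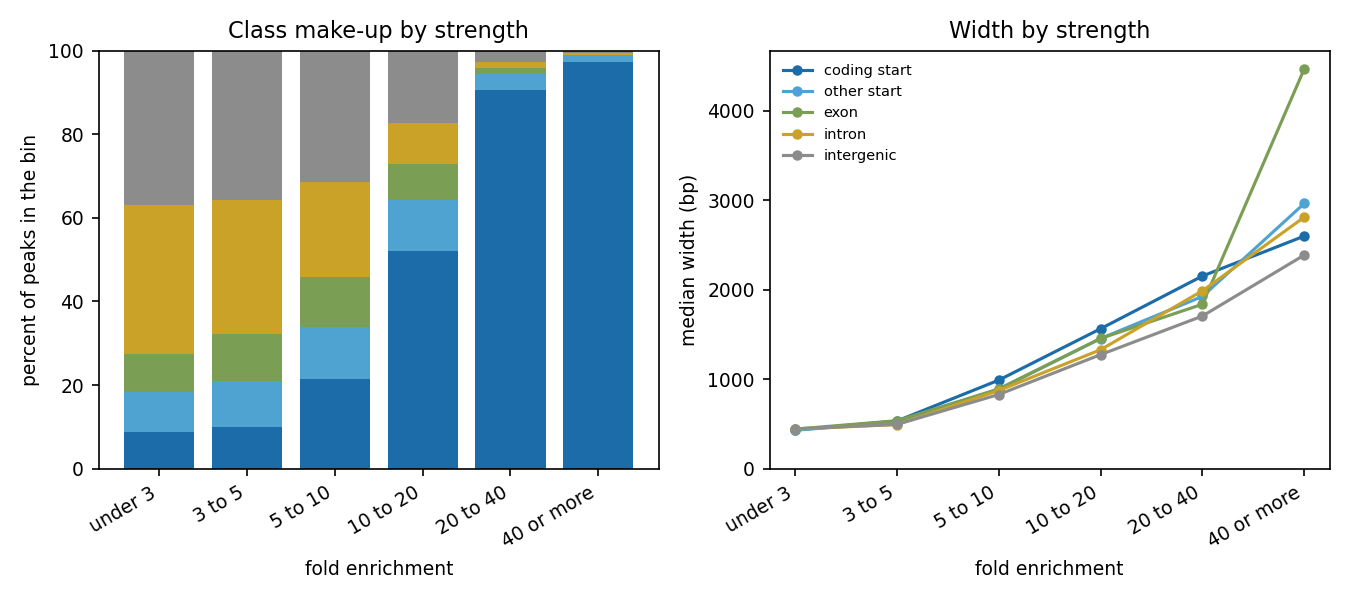
Peaks are binned by fold enrichment. The left panel gives the percent of each bin in each class and the right panel the median width of each class (bp), so that the coding-start share climbs from 8.77 to 97.3% while widths within a bin stay close below a fold enrichment of 10. The exon point in the highest bin rests on 6 peaks.

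The strongest coding-start peaks were those of Strap (88.7), which encodes a receptor-associated protein of the SMN complex, the kinase gene Cdk17 (86.8) and the splicing factor gene Rbm39 (86.6), each with a summit 250 to 289 bp from a coding start. The widest were at Setd1b, a gene for an H3K4 methyltransferase of the SET1 family, at 11177 bp (chr5:123134193-123145369), at the latent TGF-β binding protein gene Ltbp4 at 10120 bp, and at the zinc finger gene Zfp516 at 9246 bp. Their fold enrichments of 42.1, 25.1 and 37.5 were lower than those of the 3 strongest. All 6 peaks overlapped an ATAC-seq peak.

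Other starts were a mixed class. Long noncoding RNA (lncRNA) starts were nearest for 1112 of the 2827 peaks (39.3%), noncoding transcripts of protein-coding genes for 1021 (36.1%), pseudogenes for 402 (14.2%) and small RNAs for 178 (6.30%). The TEC category of GENCODE, loci that await experiments, took 112, and segments of immune receptor genes took 2. Median fold enrichment was 6.72 (6.17 to 7.22) at lncRNAs, 5.20 (4.92 to 5.60) at noncoding transcripts of coding genes and 5.23 (4.87 to 5.87) at pseudogenes. Peaks at pseudogenes were narrow, at 666 bp (619 to 703), beside 959 bp (882 to 1033) at lncRNAs. The strongest, at 61.8, had its summit 440 bp from a noncoding transcript of Sp3, a gene for a GC-box binding factor, and 1580 bp from a coding start of the same gene, which the peak covered. Gm43573 (61.0), an antisense gene beside Adgrl2, and Mical3 (59.9) followed. The widest, at 10792 bp (chr2:174290480-174301271), lay over the imprinted Gnas locus and was assigned to the small RNA gene Gm27869. The next, of 9920 and 9526 bp, were assigned to Gm24158 near Mllt6 and to Mir212 near Hic1. Among these 6 peaks, all but that of Mical3 covered a coding start. Of the whole class, 68 peaks (2.41%) covered a coding start.

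Exon peaks lay mostly in coding sequence, with 1690 of 2401 summits (70.4%). Another 347 were in exons of noncoding transcripts alone, 345 in 3′ untranslated sequence and 19 in 5′ untranslated sequence. Coding-sequence summits had a median fold enrichment of 5.36 (5.17 to 5.62) and a CpG ratio (CG dinucleotides found over those expected) of 0.478, beside 4.31 (4.00 to 4.63) and 0.372 in 3′ untranslated sequence. The strongest exon peak belonged to the kinase gene Stk35, with a summit 1139 bp downstream of a coding start, followed by B430305J03Rik (54.9) and Trim71 (49.4), a stem cell RNA-binding protein gene. Wide peaks of this class were those of Trim71 (10629 bp) and 9130213A22Rik (9697 bp). The peaks of these 4 genes each covered a coding start. In all, 58 exon peaks (2.42%) did.

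Intron peaks were split between first introns of coding transcripts (2307, 41.2%), later introns (2342, 41.8%) and introns of noncoding transcripts alone (953, 17.0%). First-intron peaks lay near coding-start peaks more often than later-intron peaks, and a first intron is by definition the closest to its transcript's start. Of first-intron peaks, 963 (41.7%) were within 5 Kb of a coding-start peak, beside 339 (14.5%) of later-intron peaks. Their median fold enrichment was 3.76 (3.72 to 3.83), beside 4.01 (3.91 to 4.08) in later introns and 4.38 (4.18 to 4.56) in noncoding transcripts. ATAC-seq peaks overlapped 69.4% (67.5 to 71.2) of first-intron peaks and 79.8% (78.1 to 81.4) of later-intron peaks. Over all intron peaks, the share was 54.0% within 5 Kb of a coding-start peak and 82.1% farther away. Whether this distance accounts for the difference between first and later introns was not tested. The strongest peaks were at Zfhx3 (58.5), Anp32b (53.8) and near Gm13039 (50.5), whose summits lay 559, 140 and 81 bp from a transcript start in RefSeq, a second annotation. The widest were at the developmental regulator Sall1 (8526 bp), the cyclin gene Ccnd2 (8138 bp) and the ETS factor gene Etv5 (7338 bp). That of Etv5 covered no coding start, had a fold enrichment of 12.3 and a low CpG ratio of 0.190.

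Between genes, median strength was alike up to 20 Kb from the nearest start and lower beyond 50 Kb. Peaks 1 to 5 Kb from the nearest start numbered 1712, with a median fold enrichment of 4.42 (4.22 to 4.58). Those 5 to 20 Kb away numbered 3157, at 4.42 (4.30 to 4.56), those 20 to 50 Kb away 1464, at 4.15 (4.06 to 4.32), and the 562 beyond 50 Kb had 3.86 (3.70 to 3.96). The strongest were upstream of Olfr1421-ps1 (61.0), 1155 bp upstream of Cpeb4 (60.3) and near Gm24409 (60.1). The summit at Cpeb4 lay 116 bp from a RefSeq start, while the other two were 2712 and 2912 bp from any. The widest, of 9082, 7559 and 6983 bp, were nearest to C230035I16Rik, Trim27 and the orphan nuclear receptor gene Nr4a3. The peak at Nr4a3 covered a coding start, and those near C230035I16Rik and Trim27 did not.

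Few peaks outside starts reached the strength of a typical coding-start peak. Of the 14898 exon, intron and intergenic peaks, 145 had a fold enrichment at or above the coding-start median, namely 26, 39 and 80. They resembled coding-start peaks of all strengths in width (median 2221 bp), in ATAC-seq overlap (144 of 145) and in CpG ratio (0.749). At a fold enrichment of 20 to 40, coding-start peaks had medians of 2153 bp and 0.740. Intergenic peaks had 1706 bp and 0.650 there, intron peaks 1988 bp and 0.639, and exon peaks 1838 bp and 0.773. Of the 145, 48 (33.1%) had a summit within 1 Kb of a RefSeq start, beside 1052 of 14898 (7.06%), and 22 (15.2%) covered a GENCODE coding start, beside 131 (0.879%). The choice of these peaks by strength bears on all 3 measures, since width, overlap and CpG ratio went with strength.

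Nearly all coding-start peaks, and most of the rest, overlapped an ATAC-seq peak. On the autosomes the list holds 172958 ATAC-seq peaks, which the paper called with a cutoff on p. How often tiled windows of each class meet one of them was not computed. The shares below thus compare the classes with each other and give no enrichment over the sequence of a class. ATAC-seq peaks overlapped 97.9% (97.6 to 98.1) of coding-start peaks, 84.9% (83.5 to 86.2) at other starts, 77.5% (75.8 to 79.1) in exons, 77.6% (76.6 to 78.6) between genes and 74.8% (73.6 to 75.9) in introns. When the H3K4me3 summit itself had to lie in an ATAC-seq peak, the shares at coding starts and between genes were 86.1% and 49.0%. A wider peak has more bases in which to overlap, and overlap also went with strength. Among intergenic peaks it was 56.3% under a fold enrichment of 3 and 94.8% from 5 to 10, where coding starts had 96.3%. The 312 coding-start peaks without an ATAC-seq peak were narrow (516 bp, 489 to 547) and weak (3.56, 3.43 to 3.69), beside 2013 bp and 28.7 for those with one. Intergenic peaks without an ATAC-seq peak had 472 bp and 3.29, beside 696 bp and 5.01 with one.

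CpG content was highest at coding starts. The CpG ratio is the number of CG dinucleotides in 1 Kb centred on the summit over the number that the G and C content would give. Its median was 0.713 (0.709 to 0.717) at coding starts, 0.442 (0.435 to 0.451) in exons, 0.431 (0.419 to 0.441) at other starts, 0.345 (0.340 to 0.349) between genes and 0.315 (0.310 to 0.320) in introns. Windows of 1 Kb laid every 10 Kb over the autosomes gave, by the same classes, 0.289, 0.212, 0.199, 0.146 and 0.170. Peaks in every class thus had a higher ratio than the sequence of their own class. Windows like a CpG island, with at least 50% G and C and a ratio of at least 0.6, held 67.6% (66.8 to 68.3) of coding-start summits, 20.4% at other starts, 19.7% in exons, 5.71% between genes and 4.12% in introns. Tiled windows of the same classes held 18.8, 1.15, 0.793, 0.133 and 0.0840%, and all tiled windows together 0.660%. Repeat-masked bases made up a median of 6.80% of the window at coding starts and 18.2% between genes, where tiled windows had 13.1 and 29.7%. Within each class the ratio went up with strength. Between genes it was 0.271 under a fold enrichment of 3 and 0.747 in the 21 peaks at 40 or more, and at coding starts 0.341 and 0.841.

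Short promoter motifs followed the same order in part. The windows searched were 500 bp around the summit, on both strands, for exact letters of which none contains another. The GC box GGGCGG was in 73.8% of coding-start windows, 31.9% of intergenic and 29.5% of intron windows, beside 4.75% of tiled windows and 54.2% of windows at the starts of all protein-coding genes. The YY1 letters ATGGCGGC were in 7.56% at coding starts and in 76 of 6895 windows between genes (tiled 0.305%, all coding genes 5.40%), and the ETS letters CCGGAAGT in 5.43 and 1.81% (tiled 0.313%, all coding genes 6.10%). The NRF1 letters GCATGCGC were in 3.43 and 1.93% (tiled 0.576%, all coding genes 4.07%). AT-rich motifs ran the other way. TATAAA was in 6.31% of coding-start and 20.0% of intergenic windows, and in 40.1% of tiled windows and 16.3% at the starts of all protein-coding genes. CCAAT was in 32.9 and 49.5%, beside 56.7% and 48.0%. These are matches of letters and show no binding.

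The same list was then read from the side of the genes. A gene was called marked when a summit fell at most 1 Kb from a start of that gene, counting only coding transcripts for a coding gene. Of 20722 autosomal protein-coding genes, 13970 were marked, or 67.4%, from 53.1% on chromosome 14 to 79.8% on chromosome 12. Of 9426 lncRNA genes, 2556 were marked, or 27.1%. Most of the latter sat beside coding genes. Where a lncRNA start lay within 1 Kb of a coding start, 1480 of 1802 genes (82.1%, 80.3 to 83.8) were marked, and elsewhere 1076 of 7624 (14.1%, 13.4 to 14.9). For these neighbours a summit cannot be given to 1 gene alone. Small RNA genes were marked in 8.64% and pseudogenes in 4.28% of cases.

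Coding genes divided by the CpG ratio of their first start. A summit at any coding start of a gene marked it, so the summit may lie away from the first start. Below 0.2, 437 of 4658 genes (9.38%, 8.58 to 10.2) were marked, and from 0.2 to 0.4, 1337 of 3317 (40.3%, 38.7 to 42.0). From 0.4 to 0.6 the share was 88.3%, from 0.6 to 0.8 97.1%, from 0.8 to 1 98.5%, and at 1 or more 403 of 405 genes (99.5%). The median ratio was 0.714 (0.709 to 0.719) in marked and 0.163 (0.160 to 0.166) in unmarked genes. Of genes with a first start like a CpG island, 9435 of 9624 (98.0%) were marked, and of the other genes 4535 of 11098 (40.9%). Among the latter, an ATAC-seq peak within 500 bp went with a share of 78.7% (77.6 to 79.8) over 4889 genes, and none within 500 bp with 11.0% (10.3 to 11.8) over 6209 genes.

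**Figure D5:**
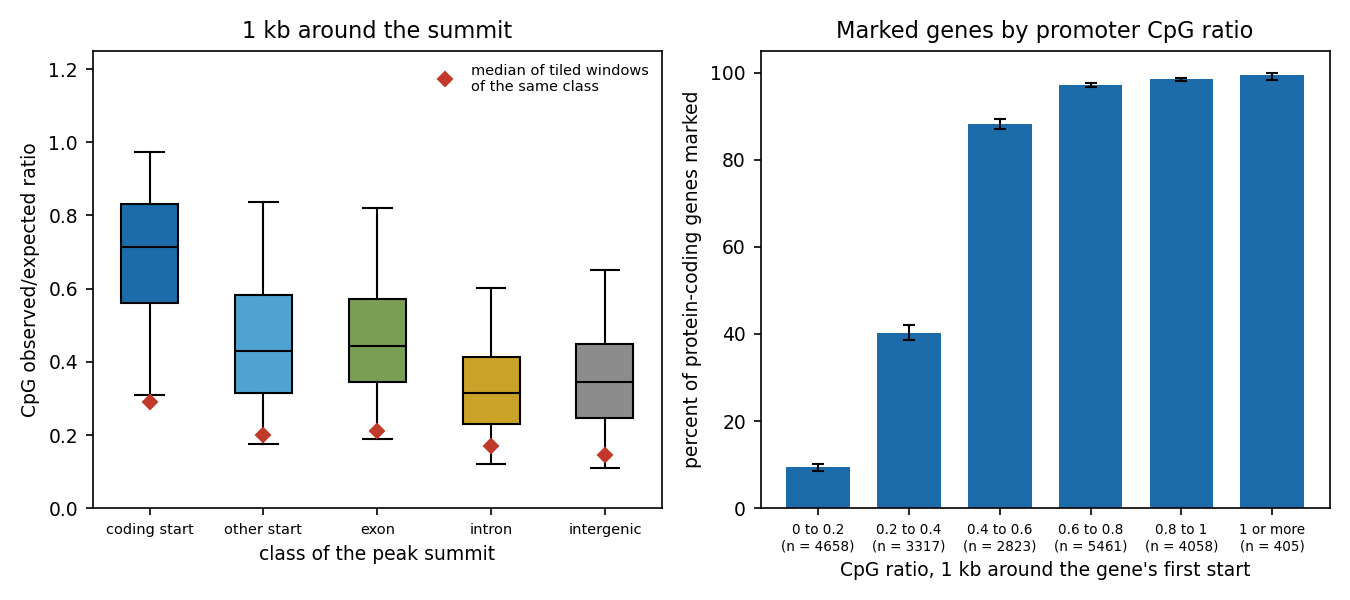
Left, the CpG ratio in 1 Kb around the summit for each class (box, median and quartiles, whiskers at the 5th and 95th percentiles), with the median of tiled windows of that class as a diamond. Right, the percent of protein-coding genes marked, with 95% Wilson intervals, by the CpG ratio at the gene's first start, from 9.38% in the lowest bin to 99.5% in the highest.

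Named genes were taken from short lists, and for each marked gene the strongest peak at its starts is given. All 14 pluripotency genes were marked, where 67.4% of coding genes were. Pou5f1 had a peak of 5078 bp (chr17:35504977-35510054) at 35.1 and Sox2, its partner, 1 of 8186 bp at 42.9. Lin28a, a gene for a repressor of let-7 processing, had the highest value of the list, 45.2, and Sall4 had 37.6. Nanog had 14.9, with a summit 884 bp downstream of its start, and Prdm14 the lowest, 10.0. The median of the list was 26.8, close to the 28.3 of all coding-start peaks, while its median width of 5085 bp, with a range from 2177 to 8186 bp, was above their 1988 bp.

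Housekeeping genes had strong peaks. Marked were 13 of 14, beside 67.4% of all coding genes, with a median fold enrichment of 49.8 and a width of 3722 bp. The cytoskeletal actin gene Actb had 73.5, the 14-3-3 gene Ywhaz 66.5, the chaperone gene Hsp90ab1 60.8 and the glycolytic gene Gapdh 49.8. B2m, of MHC class I, and the lysosomal gene Gusb were lowest, at 23.1 and 23.9. Tbp, the gene for the TATA-binding protein, was not marked by the rule. A peak of 4682 bp at 41.6 covered its start, but the summit lay 1744 bp away.

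Developmental regulators of the germ layers were marked in 13 of 14 cases, beside 67.4% of all coding genes. Their peaks were wide, with a lower enrichment. Their median width was 4354 bp and their median fold enrichment 18.6. Gata6, of endoderm, had the widest peak at 8982 bp and 17.6. Foxa2 had 21.8, the neural genes Sox1 and Pax6 21.5 and 13.2, and the mesoderm gene T 20.1. Neurog1 and the muscle regulator Myod1 had the lowest, 8.06 and 6.23. Nkx2-2, which was not marked, lay under a peak of 3452 bp at 10.4 with a summit 1143 bp from its start.

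Genes of terminally differentiated cells were marked in 1 of 14 cases, beside 67.4% of all coding genes. Gfap, of astrocytes, had a peak of 537 bp at 4.20 without an ATAC-seq peak. Alb, Ins2, Hbb-bs, Myh6, Krt14 and Csn2 had no summit within 5 Kb, with the nearest summit 7714 bp away at Ins2 and 412952 bp at Csn2. At some other unmarked genes of the list the nearest summit was closer, 1449 to 4383 bp away. The strongest of those peaks was 1014 bp wide, at 13.3. Amy2b, also unmarked, is a pseudogene in this annotation. At none of the 13 unmarked genes did the peak with the nearest summit cover a start of the gene.

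The label of the cells was compared with marker genes. All 8 embryonic stem cell markers (Pou5f1, Sox2, Nanog, Zfp42, Esrrb, Klf4, Tfcp2l1 and Sall4) were marked, at 14.9 to 42.9. Of 8 fibroblast markers, which the feeder cells would carry, 4 were marked, namely Col1a2 (20.4), Thy1 (19.6), Pdgfrb (7.35) and Dcn (3.39, in a peak of 271 bp). Col1a1 was covered by a peak of 2464 bp at 13.9 with a summit 1388 bp from its start, and at Col3a1, Lum and Postn the peak with the nearest summit did not reach a start. Of all coding genes, 67.4% were marked, and neither marker list was tested against that share. Whether feeder chromatin has a part in any class was not tested.

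Known noncoding RNA genes were marked in 11 of 12 cases, where 27.1% of lncRNA genes were. The imprinted genes Meg3, Kcnq1ot1, Airn and H19 had 30.2, 33.8, 23.1 and 5.93. Neat1, of paraspeckles, had 14.7 in a peak of 5155 bp, and Dancr 41.3. The summits at Gas5 (38.6), Snhg1 (49.7), Tug1 (42.4) and Fendrr (20.3) lay within 1 Kb of a coding start and so counted in that class. Malat1 was not marked, yet a peak of 8419 bp at 40.1 covered its start with a summit 1480 bp away.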

How the data were processed

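H3K4me3 ChIP-seq and ATAC-seq were each made in 2 replicates. For ChIP-seq, the authors ran ENCODE's uniform pipeline for histone data with default settings and deposited 1 list of replicated peaks. The aligner, peak caller and use of the input for it are not given in the sources used here, and mm10 is the build in the submitters' processing notes. Its deposited columns hold positions, a signal value taken here as fold enrichment, and −log10 values of p and q, which run from 0.500 upward for q. For ATAC-seq, tools named in those notes are Bowtie (version 1.1.2), MACS2 (2.1.1.20160309), SAMtools and bedtools (2.27.1). Read ends were moved to the Tn5 insertion site, peaks were called on pooled reads, and those present in each replicate were kept and deposited as positions alone. Requiring a peak in each replicate removes ATAC-seq peaks seen in 1 alone. Fold enrichment, if it is a ratio of ChIP signal to background, depends on the pipeline's background.

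Summits were assigned with GENCODE M21 and sequence was read from the mm10 genome of RefSeq. An H3K4me3 peak overlapped an ATAC-seq peak when they shared at least 1 bp. Scripts ran in Python (3.11.15) with pandas (2.3.3), numpy (2.4.6), matplotlib (3.10.9) and scipy (1.17.1) and were tested on simulated data. Named were all genes of the lists and, in each class, the 3 strongest and 3 widest peaks, except for some genes that are not reported here. The classes, gene lists and rules were chosen with earlier results of these data known. The comparisons with RefSeq starts, with coding starts covered by a peak and within bins of strength or width were added after seeing the data. PLAC-seq and input samples were not used here. Alternatives changed the start window, the reference point, the q minimum, the transcripts, the chromosomes, the merging of peaks, the ATAC-seq overlap and the sequence window.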

Additional observations from a re-analysis of the deposited data

Results flagged for a closer look

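Peaks outside the 19 autosomes were not part of the classes and drew attention because they hold H3K4me3 signal outside the main description, although chromosomes X and Y entered as an alternative. Chromosome X held 940 peaks, of which 542 (57.7%) were coding start, 83 other start, 32 exon, 104 intron and 179 intergenic. Coding-start peaks there had a median width of 1800 bp and a fold enrichment of 22.3, against 1988 bp and 28.3 on the autosomes, and this difference was not tested. Chromosome Y held 13 peaks, 4 of them coding start and 8 intergenic. Scaffolds held 38 peaks with a median width of 615 bp and a fold enrichment of 3.35.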

How the results depend on the processing

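Each alternative changed 1 choice. Of 59 recomputed counts, 55 stayed within 1.5 times the value reported, and of 62 recomputed medians and shares, 23 stayed within the interval of the value reported. No paired analysis was possible because 1 list stands for both replicates and no result comes from a test. For the same reason no replicate could be left out. Coding-start peaks stayed wider and stronger than intergenic peaks under each alternative run for width and strength, and stayed above them in ATAC-seq share and in CpG ratio under those run for these 2 measures. A start window of 500 bp gave coding-start peaks a median fold enrichment of 29.2, an ATAC-seq share of 98.5% and a CpG ratio of 0.719, with an intergenic CpG ratio of 0.349. With 2 Kb, coding-start peaks had 1932 bp, 26.9, 95.6% and 0.698. The midpoint in place of the summit gave coding-start peaks 1953 bp and 27.9, and any base of the peak gave 27.7. A −log10 q of at least 10 left 2932 intron and 4034 intergenic peaks. It gave coding-start peaks 2037 bp, 29.2, 99.2% and 0.722, and intergenic peaks 847 bp, 6.30, 93.4% and 0.395. Coding by gene type gave 1765 other-start peaks and coding-start medians of 1929 bp and 26.9, and basic transcripts gave 1828, 2016 bp and 28.9. Merging peaks gave medians of 2154 bp and 29.7 at coding starts and 678 bp and 4.54 between genes. RefSeq starts added to the other starts, an alternative chosen after seeing the data, gave intergenic medians of 610 bp and 4.21. ATAC-seq shares at coding starts and between genes were 91.6 and 59.1% with 50% of the ATAC-seq peak inside, 86.1 and 49.0% with the summit inside it, and 96.0 and 66.1% with the widest 50% of ATAC-seq peaks. CpG ratios were 0.776 and 0.386 over 500 bp, and 0.582 and 0.369 over the whole peak. The cause of these shifts was not tested beyond the smaller number of peaks that a stricter q leaves. Depth is unknown, so a gene without a peak may carry H3K4me3 below what these libraries detect.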

Other observations

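The noncoding gene types of GENCODE differed in how many of their genes were marked by H3K4me3. Bidirectional promoter lncRNA genes, which by name share a promoter, were marked in 169 of 190 cases (88.9%), antisense genes in 998 of 2913 (34.3%), lincRNA genes in 940 of 5209 and sense intronic genes in 25 of 327 (7.65%). Away from coding starts, antisense and lincRNA genes came close, at 266 of 1983 (13.4%) and 638 of 4840 (13.2%). The GENCODE type processed transcript had 153 of 455 (33.6%) there. Only 4 bidirectional promoter lncRNA genes lay away from coding starts, and 1 of them was marked. Among small RNAs, 271 of 2054 miRNA genes (13.2%) and 54 of 1292 snRNA genes (4.18%) were marked, and away from coding starts 130 of 1833 (7.09%) and 39 of 1259 (3.10%). Processed pseudogenes were marked in 327 of 8924 cases (3.66%), and those annotated as transcribed in 54 of 269 (20.1%). Away from coding starts these were 312 of 8865 (3.52%) and 33 of 243 (13.6%).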
